A study of Mus musculus with 3 samples.

Results

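The replication-dependent histone genes of mouse were followed in ES cells after NUP153 knockdown. The members were all genes whose symbol starts with Hist1, Hist2, Hist3 or Hist4, which gave 68 of the 24421 genes in the read counts. By class these were 6 H1, 18 H2A, 19 H2B, 12 H3 and 13 H4 genes. By cluster 54 genes belonged to Hist1 on chromosome 13, 10 to Hist2 on chromosome 3, 3 to Hist3 on chromosome 11 and 1 to Hist4 on chromosome 6 (GRCm38). Of the 68, 58 averaged 10 or more reads per library and were compared between libraries, and the other 10 are accounted for below. The rule reads gene symbols and no measured value, but these genes were picked for description with earlier results of the same libraries known.

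NUP153 is a nucleoporin of the nuclear basket, and the study used shRNA knockdown to examine its part in chromatin architecture and transcription. RNA-Seq was performed on 1 control library (scramble shRNA), 1 KD-1 library (shRNA-1) and 1 KD-2 library (shRNA-2). All 3 came from the female EL16.7 ES cell line (strain background F2:129S1/CastEiJx 129S1, undifferentiated, with LIF), transduced by lentivirus and kept for 2 days in 2 μg/ml puromycin. The cells grew on γ-irradiated fibroblast feeders from Tg(DR4)1Jae/J mice, so each library can also hold feeder RNA. Total RNA was depleted of ribosomal RNA rather than selected for poly(A) tails. With 1 library per condition no difference between libraries has a replicate check, and the intervals given here cover counting error only, since reads without molecular identifiers are not independent molecules. KD-1 and KD-2 are both set against the same control library, while the comparison of KD-2 with KD-1 does not use it.

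Nucleosomes are built from the core histones H2A, H2B, H3 and H4, and the linker histone H1 binds the DNA between them. The replication-dependent genes encoding them lie in clusters, have no introns, and are transcribed in S phase, when new DNA must be packaged. Their mRNAs normally end in a conserved stem-loop in place of a poly(A) tail. The stem-loop is bound by SLBP, cut downstream with the help of the U7 snRNP, and used to degrade the mRNAs when DNA synthesis stops. Libraries made without poly(A) selection can therefore count these mRNAs, and ES cells, with their short G1 phase and long S phase, hold many of them.

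The targeted gene and the cell labels were checked first. Nup153 gave 27870 reads in the control library, 16451 for KD-1 and 11126 for KD-2, so that its log2 fold change was -0.99 (95% counting interval -1.02 to -0.96) for KD-1 and -1.43 (-1.46 to -1.40) for KD-2. Reads on genes numbered 72344726, 85258834 and 69839336. All 12 ES cell markers listed were read in every library, among them Pou5f1 with 35405, 45092 and 32962 reads in control, KD-1 and KD-2. All 16 feeder fibroblast markers were read too, and their summed level was 3120 CPM (counts scaled to the reads on genes) in control, 2181 CPM in KD-1 and 5696 CPM in KD-2.

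The 3′ element was searched in the GENCODE M21 transcripts (GRCm38, the build of the authors' mapping) by the histone 3′ stem-loop motif, a pattern of 16 bases with some positions free, on the transcript strand. It was found in 44 of the 68 members (64.7%) and in 45 of 55273 other genes (0.0814%). A missing match says only that the letters are not in the annotated transcript, and several members, such as Hist2h2bb, are annotated as little more than the coding sequence. Examples of each class are printed because this element sets these mRNAs apart from other mRNAs, with the 16 matching bases in capitals and 7 flanking bases on each side.
Hist1h1c: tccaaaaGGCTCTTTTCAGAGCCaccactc
Hist1h2ag: caacaaaGGCTCTTTTCAGAGCCacctaac
Hist1h2bf: acccaaaGGCTCTTTTCAGAGCCacctacc
Hist1h3f: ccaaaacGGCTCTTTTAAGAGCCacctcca
Hist1h4c: aacaaaaGGCCCTTTTCAGGGCCacccaca
Hist1h4j: ccctaaaGGTCCTTTTCAGGACCaccacat
The GRCm38 positions were Hist1h1c at chr13:23739505-23739534 (plus strand), Hist1h2ag at chr13:22042476-22042505 (minus strand), Hist1h2bf at chr13:23573758-23573787 (minus strand), Hist1h3f at chr13:23544925-23544954 (plus strand), Hist1h4c at chr13:23698082-23698111 (minus strand) and Hist1h4j at chr13:21735430-21735459 (plus strand), each in the single exon of its gene. All matches in H1, H2A, H2B and H3 genes had 1 stem and differed only in the loop (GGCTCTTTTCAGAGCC, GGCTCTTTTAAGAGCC or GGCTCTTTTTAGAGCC). The 11 matches in H4 genes had other stems: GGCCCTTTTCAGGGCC in 7 genes, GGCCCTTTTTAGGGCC in 2, and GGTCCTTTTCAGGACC in another 2, one of which is Hist1h4j. Among other genes with the letters in the read counts was H2afx, which encodes the H2A.X variant and whose mRNA is known in both a stem-loop and a poly(A) form.

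Histone reads made up a larger share of the KD-2 library than of the other libraries. The 68 genes held 0.498% of the reads on genes in control (exact Clopper-Pearson 95% interval 0.497 to 0.500), 0.510% in KD-1 (0.509 to 0.512) and 0.915% in KD-2 (0.913 to 0.918). After upper-quartile scaling for library depth, the summed reads were 1.03-fold those of control in KD-1 and 1.65-fold in KD-2, and the log2 ratio of KD-2 over KD-1 was 0.68. The 3 libraries fall into control and KD-1, which were close, and KD-2, which was higher. In bulk RNA a larger number of cells in S phase and more histone mRNA per cell cannot be told apart.

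Gene by gene, KD-1 differed little from control. The median log2 fold change of the 58 members was 0.06 in KD-1, against 0.02 over all 16670 genes with at least 10 reads on average. A gene is called past the fold here when its scaled reads, with 0.5 reads added, differ by more than 1.5-fold. In KD-1, 2 members were higher past this fold and 0 were lower, where 8.63% of all genes were higher and 5.62% lower. In KD-2, 44 of 58 members were higher and 0 lower, where 17.1% of all genes were higher and 10.2% lower, and the median over the members was 1.15 against -0.02 over all genes. In the direct comparison of KD-2 with KD-1, 42 members were higher and 0 lower, where 16.1% of all genes were higher and 13.9% lower. Scaling by total reads on genes in place of the upper quartile moved the median of all genes in KD-2 from -0.02 to 0.14 and the count of members from 44 to 50, while the share of all genes higher went from 17.1% to 23.6%. Past a fold of 2, 1 member was higher in KD-1, 34 in KD-2 and 30 in KD-2 against KD-1, where 3.09%, 5.42% and 7.89% of all genes were.

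**Figure D1:**
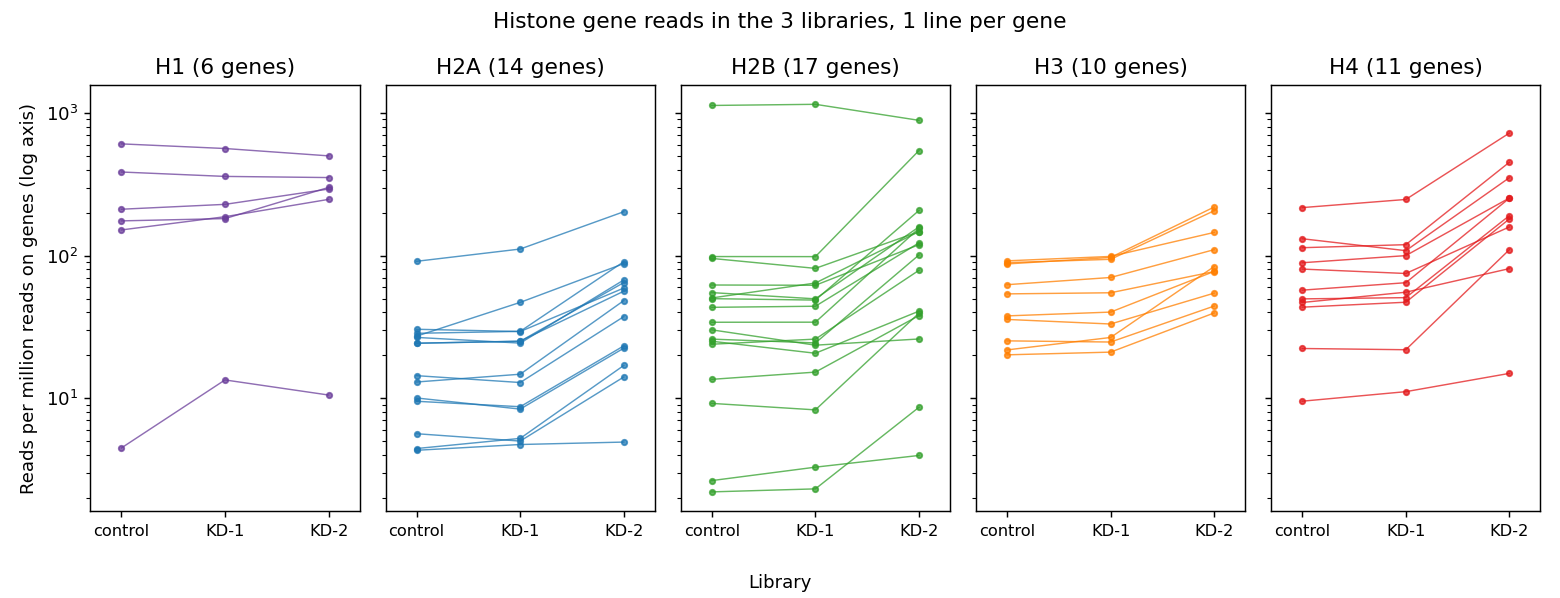
CPM (log axis) of the 58 histone genes with at least 10 reads on average, 1 line per gene, in the control, KD-1 and KD-2 libraries, by class. On this scale of reads per library total, 2 genes rise past 1.5-fold from control to KD-1 and the other 56 stay within it. In KD-2, 50 are higher past 1.5-fold (44 under upper-quartile scaling). The top H2B line (Hist2h2bb) falls from KD-1 to KD-2, and the top H1 lines slope down.

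No member was called when KD-1 and KD-2 were taken as a group of 2 and set against control. edgeR's quasi-likelihood test called 0 of the 58 members at a Benjamini-Hochberg FDR of 0.05, where 0.0189% of the 21164 genes with a read were called. The unadjusted p was below 0.05 for 24 members, all higher in the knockdown libraries, where 1.38% of all genes passed that limit. The lowest adjusted p of a member was 0.59 in this test, for Hist1h2bn, and 0.52 to 1 in the other scalings, filter and test tried. The DESeq2 Wald test also called 0 members, where 0.00945% of all genes were called, and put 7 members below an unadjusted p of 0.05, where 0.387% of all genes were. With 1 residual degree of freedom, the spread in this test comes from KD-1 and KD-2 alone, which is where the histone genes differ. The median log2 fold change of the members in this comparison was 0.70, and was 0.04 without the KD-2 library and 1.19 without the KD-1 library.

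By class, H4 and H2B genes had the largest fold changes in KD-2 and H1 genes the smallest. The median log2 fold change in KD-2 was 1.58 for H4, 1.37 for H2B, 1.17 for H2A, 0.74 for H3 and 0.43 for H1. Higher past 1.5-fold were 10 of 11 H4, 13 of 14 H2A, 12 of 17 H2B, 7 of 10 H3 and 2 of 6 H1 genes, where 17.1% of all genes were. In KD-1 the class medians ran from 0.01 for H2B to 0.12 for H4, and that of H2B was below 0 under every other scaling tried and that of H2A below 0 under DESeq2 size factors.

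The sum over a class followed its most abundant genes. Summed H4 reads were 2.88-fold control in KD-2, summed H2A reads 2.27-fold, summed H3 reads 1.80-fold and summed H2B reads 1.45-fold. Without Hist2h2bb the H2B sum was 2.80-fold control, close to that of H4. The H1 sum was 0.995-fold control. Over the core histones without Hist2h2bb the sum was 2.53-fold control in KD-2 and 1.05-fold in KD-1.

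**Figure D2:**
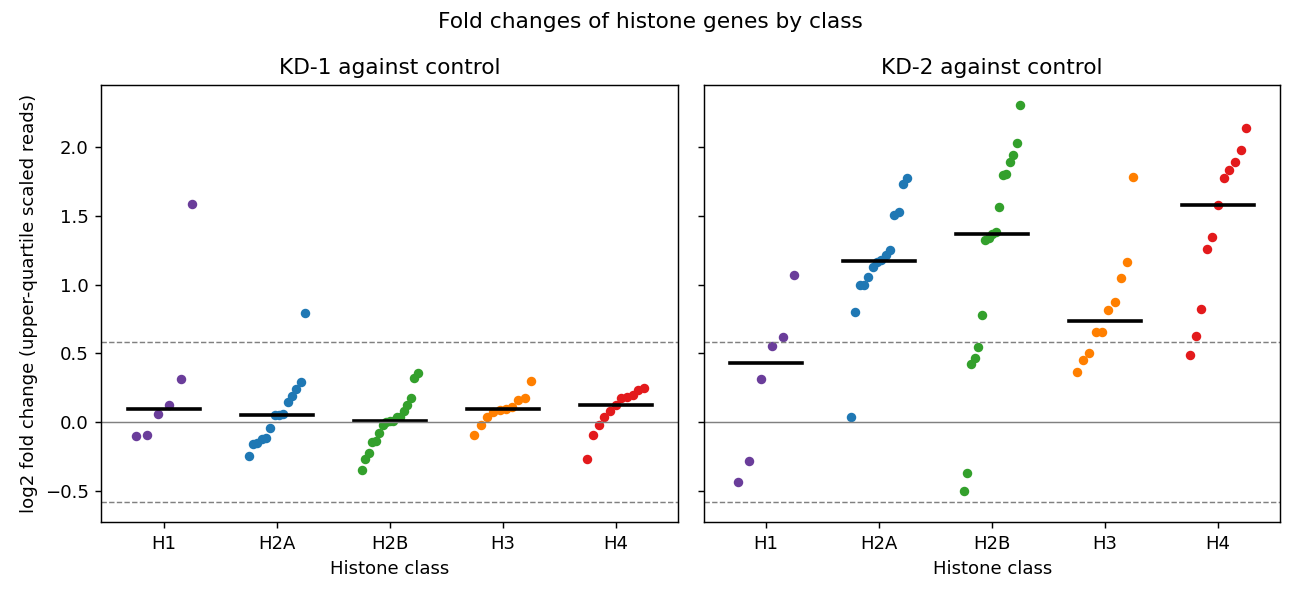
log2 fold changes of the 58 histone genes by class in KD-1 (left) and KD-2 (right) against control, 1 point per gene, with the class median as a black bar and dashed lines at 1.5-fold. In KD-1 the medians lie between 0.01 and 0.12, and in KD-2 between 0.43 (H1) and 1.58 (H4).

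H4 is the most conserved histone and pairs with H3 in the nucleosome core. Hist1h4d, the H4 gene with the most reads, gave 15688 reads in the control library, 21089 for KD-1 and 50441 for KD-2, so that its log2 fold change was 0.20 for KD-1 and 1.58 for KD-2. Hist1h4c had 8221, 10175 and 31513 reads, and its log2 fold change in KD-2 was 1.83 (1.80 to 1.87). Both lay near control in KD-1, whereas their levels in KD-2 were 2.99-fold and 3.56-fold those of control. Hist1h4j had 1617, 1868 and 7687 reads, which gave -0.02 for KD-1 and 2.14 (2.07 to 2.22) for KD-2. Hist1h4a had 4144, 5507 and 17644 reads, which gave 0.18 and 1.98. Hist4h4, the only member of the Hist4 cluster, gave 9498 reads in the control library, 9236 for KD-1 and 24554 for KD-2, below control in KD-1 (-0.27) and above it in KD-2 (1.26). The H4 gene that did not pass the fold in KD-2 was Hist2h4, with 691, 950 and 1045 reads and a log2 fold change of 0.49.

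H3 carries the tail lysines whose methylation marks active and silent chromatin. Hist1h3e gave 6323 reads in the control library, 8280 for KD-1 and 15297 for KD-2, so that its log2 fold change was 0.16 for KD-1 and 1.17 for KD-2. Hist1h3f had 6459, 8031 and 14408 reads, with 0.09 for KD-1 and 1.05 for KD-2. These differ from control by less than 1.5-fold in KD-1 and by more than 2-fold in KD-2. The H3 gene furthest from control in KD-2 was Hist2h3b, with 1580, 2276 and 5859 reads and a log2 fold change of 1.78. The other 7 H3 genes lay between 0.36 (Hist1h3d) and 0.88 (Hist1h3a) in KD-2.

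H2A and H2B form dimers that leave and enter the nucleosome more readily than H3 and H4. Hist1h2bn, an H2B gene, had the largest log2 fold change of all members in KD-2. It gave 7126 reads in the control library, 8387 for KD-1 and 38056 for KD-2, so that it stood at control level in KD-1 (0.01, -0.04 to 0.05) and at 4.96-fold that level in KD-2 (log2 2.31, 2.27 to 2.35). Of its 50-base windows 86.4% also occur in other genes, most often in Hist1h2bk (1.34 in KD-2). Hist1h2bg had 2469, 2913 and 10859 reads (0.01 for KD-1 and 2.03 for KD-2), and Hist1h2bp had 667, 708 and 2762 reads (-0.14 and 1.94). Of the H2A genes, Hist3h2a had the most reads, with 6601, 9485 and 14178 in control, KD-1 and KD-2, or 0.29 for KD-1 and 1.00 for KD-2. Its annotated span overlaps Trim17. Trim17 is counted as well and had 5, 20 and 14 reads.

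Hist2h2bb stood on the other side of control in KD-2. It was the most abundant member, at 2285 RPKM (CPM per kilobase of RefSeq gene length) in control, 2329 RPKM in KD-1 and 1798 RPKM in KD-2. Its reads numbered 81513, 97877 and 61903, so that its log2 fold change was 0.04 (0.02 to 0.05) for KD-1 and -0.50 (-0.52 to -0.49) for KD-2, lower but within the 1.5-fold limit. Of 332 windows of 50 bases in its transcript 0 occur in annotated transcripts of genes at other loci, and unannotated copies were not searched. The span of Hist2h2bb overlaps the annotated genes Gm20628 and Gm42743, which are not in the read counts. Strand use in counting was not stated, so reads of Gm20628, on the opposite strand, cannot be told apart from those of Hist2h2bb.

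The other Hist2 genes did not follow it. Hist2h2ac gave 1934 reads in the control library, 2079 for KD-1 and 4716 for KD-2 (log2 1.18 in KD-2), and Hist2h2be had 160, 198 and 605 reads (1.81 in KD-2). Hist2h2ab had 313, 405 and 345 reads, and its interval in KD-2 spanned 0 (0.03, -0.19 to 0.26). Summed without Hist2h2bb, the Hist2 genes reached 1.08-fold their control level in KD-1 and 2.50-fold in KD-2, against 0.802-fold in KD-2 with it. In the Hist3 cluster, Hist3h2ba had 983, 1302 and 2656 reads (1.33 in KD-2), and the pseudogene Hist3h2bb-ps had 192, 281 and 278 reads (0.43 in KD-2).

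Of the 58 members, 4 were below control in KD-2, and all 4 stayed below 0 under TMM, DESeq2 and total-read scaling. Beside Hist2h2bb these were Hist1h1a, Hist1h1b and Hist1h2bm. Hist1h1a, the H1 gene with the most reads, gave 43868 reads in the control library, 47975 for KD-1 and 34903 for KD-2, or -0.10 for KD-1 and -0.44 (-0.46 to -0.42) for KD-2. Hist1h1b had 27866, 30594 and 24597 reads, or -0.09 and -0.29. Hist1h2bm had 2184, 2010 and 1820 reads, or -0.35 for KD-1 and -0.37 for KD-2, the one core histone gene in the Hist1 cluster below control in KD-2. None of the 4 passed 1.5-fold.

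H1 binds linker DNA and compacts the chromatin fibre. Its remaining somatic genes were above control in KD-2: Hist1h1d at 0.31, Hist1h1e at 0.55 and Hist1h1c at 0.62. Hist1h1c, with 12670, 15490 and 20983 reads, was just past the 1.5-fold limit (0.585 on the log2 scale), and Hist1h1e, with 10948, 15973 and 17298 reads, just short of it. The order of the H1 genes by level changed little, with Hist1h1a at 814, 755 and 671 RPKM on top in every library and Hist1h1t lowest at 6.11, 18.3 and 14.4 RPKM. The median H1 difference of KD-2 from KD-1 was -0.002, and was above 0 under each other scaling.

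The members known from the germ line had the 3 highest log2 fold changes in KD-1. Hist1h1t is the testis-specific linker histone, and Hist1h2aa and Hist1h2ba encode the H2A and H2B forms of testis and oocyte. Hist1h1t gave 325 reads in the control library, 1148 for KD-1 and 737 for KD-2, so that its log2 fold change was 1.59 (1.41 to 1.77) for KD-1 and 1.07 (0.88 to 1.27) for KD-2, and it was lower in KD-2 than in KD-1 (-0.52). Hist1h2aa had 1973, 4010 and 6138 reads, or 0.79 (0.72 to 0.87) for KD-1 and 1.53 for KD-2. These are the 2 members higher past 1.5-fold in KD-1. Hist1h2ba, divergent from Hist1h2aa, came next with 3654, 5479 and 10286 reads, or 0.36 in KD-1, short of the limit, and 1.39 in KD-2. Below them in KD-1 were Hist3h2bb-ps (0.32) and Hist1h1e (0.32), and at the low end Hist1h2bm (-0.35), Hist1h2be (-0.27), Hist4h4 (-0.27), Hist1h2ae (-0.25) and Hist1h2bb (-0.22).

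Along the Hist1 cluster of chromosome 13, higher genes stood in both of its blocks. The proximal block holds 23 members, of which 17 had enough reads, and its median in KD-2 was 1.34 with 14 higher past 1.5-fold. The distal block holds 31, all with enough reads, and its median was 1.05 with 24 higher. Over all genes 17.1% were higher in KD-2. The distal block also holds 5 of the 6 H1 genes, and Hist1h1b lies in the proximal one. The Hist1 genes below control in KD-2 were single genes between higher neighbours, as for Hist1h2bm, which lies between Hist1h3h (0.45) and Hist1h4j (2.14).

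**Figure D3:**
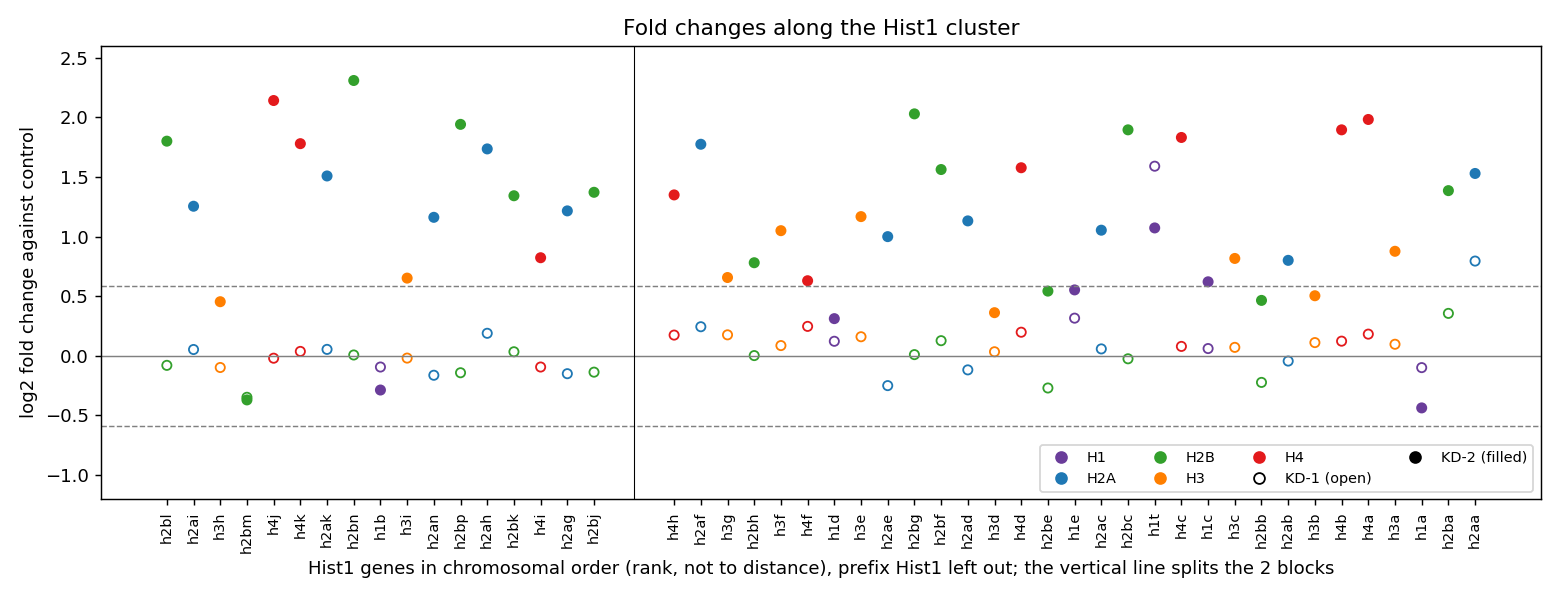
log2 fold changes against control of the 48 Hist1 genes with at least 10 reads on average, in chromosomal order by rank, with KD-1 as open and KD-2 as filled circles, colour by class and dashed lines at 1.5-fold. Filled circles above the upper line occur in both blocks, 14 in the proximal and 24 in the distal block, and the open circles above it are Hist1h1t and Hist1h2aa.

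Many H2A and H2B genes are transcribed head to head from one short stretch of DNA. There were 13 such pairs, with starts 164 to 281 bases apart, and both genes had enough reads in 11. In KD-2 both genes were higher past 1.5-fold in 10 of the 11, and in KD-1 in 0. The exception was Hist3h2a with the pseudogene Hist3h2bb-ps. The H2B gene had the larger log2 fold change in 8 pairs and the smaller one in 3, with a median difference of 0.55 and a range of -0.57 to 1.03. In Hist1h2ak and Hist1h2bn, whose starts are 164 bases apart, the log2 fold changes in KD-2 were 1.51 and 2.31, and in Hist1h2ae and Hist1h2bg 1.00 and 2.03. In KD-1 the median difference over the pairs was 0.01.

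**Figure D4:**
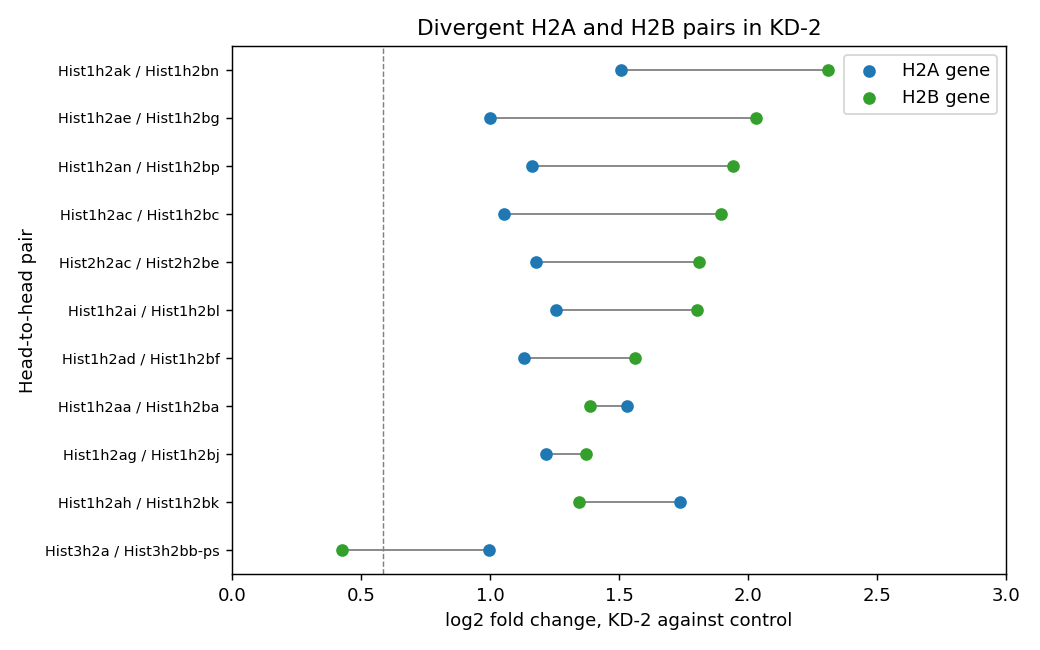
log2 fold change in KD-2 against control of the H2A gene (blue) and the H2B gene (green) of 11 head-to-head pairs, 1 row per pair, with a dashed line at 1.5-fold. In 10 pairs both points lie right of the line, and in 8 pairs the H2B point lies further right.

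Promoter windows were taken from RefSeq (GRCm38.p6), from 250 bases before to 50 after each start, for the 62 members that matched. The letters searched, on both strands, were CCAAT for the CCAAT box, TATAAA for the TATA box, ATTTGCAT for the octamer and its inner stretch TTGCAT, whose matches include those of the octamer. AAACACA was added after values were seen. CCAAT was in 85.5% of member windows and in 37.3% of 32788 other windows, TATAAA in 56.5% and 13.5%, ATTTGCAT in 21.0% and 1.70%, and TTGCAT in 27.4% and 10.7%. Every H1, H2A, H2B and H3 window held CCAAT, and 3 of 12 H4 windows did. The octamer was in 7 H2A and 6 H2B windows and in 0 of the other classes. Windows of genes transcribed head to head overlap, so the same letters can count for both, as does the octamer of Hist1h2ah and Hist1h2bk. AAACACA was in 5 of 6 H1 windows and in 7.17% of other windows.

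The windows of the 2 members furthest above control in KD-2 and of 3 below it are printed to show genes that stood on opposite sides of control, with these motifs on either strand in capitals.
Hist1h2bn: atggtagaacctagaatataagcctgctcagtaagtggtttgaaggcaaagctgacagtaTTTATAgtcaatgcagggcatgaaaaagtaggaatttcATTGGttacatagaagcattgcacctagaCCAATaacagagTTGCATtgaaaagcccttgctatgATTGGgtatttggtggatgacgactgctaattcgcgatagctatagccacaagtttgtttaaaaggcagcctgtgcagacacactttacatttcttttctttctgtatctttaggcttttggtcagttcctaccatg
Hist1h4j: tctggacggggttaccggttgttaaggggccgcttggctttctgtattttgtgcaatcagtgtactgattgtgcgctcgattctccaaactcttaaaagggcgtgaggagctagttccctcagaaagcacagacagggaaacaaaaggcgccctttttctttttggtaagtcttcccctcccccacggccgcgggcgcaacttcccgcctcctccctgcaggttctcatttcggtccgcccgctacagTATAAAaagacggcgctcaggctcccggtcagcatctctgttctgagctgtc
Hist1h2bm: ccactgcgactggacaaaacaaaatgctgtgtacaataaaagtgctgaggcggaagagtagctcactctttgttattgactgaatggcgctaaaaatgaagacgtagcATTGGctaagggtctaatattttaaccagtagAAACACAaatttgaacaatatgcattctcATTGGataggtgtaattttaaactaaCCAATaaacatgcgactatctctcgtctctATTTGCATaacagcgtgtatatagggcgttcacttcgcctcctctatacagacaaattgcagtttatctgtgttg
Hist2h2bb: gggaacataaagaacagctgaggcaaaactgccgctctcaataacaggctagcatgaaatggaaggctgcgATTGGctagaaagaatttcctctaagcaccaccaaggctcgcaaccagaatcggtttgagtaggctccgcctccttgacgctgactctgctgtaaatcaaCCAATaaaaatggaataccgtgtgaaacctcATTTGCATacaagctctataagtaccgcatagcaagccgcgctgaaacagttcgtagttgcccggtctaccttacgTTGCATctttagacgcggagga
Hist1h1a: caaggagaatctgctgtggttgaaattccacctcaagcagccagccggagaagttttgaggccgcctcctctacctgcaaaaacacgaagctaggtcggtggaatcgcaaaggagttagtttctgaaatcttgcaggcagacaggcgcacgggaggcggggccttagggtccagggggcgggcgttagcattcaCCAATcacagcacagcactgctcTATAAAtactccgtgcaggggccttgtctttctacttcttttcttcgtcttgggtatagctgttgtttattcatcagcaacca
The windows were those of Hist1h2bn at chr13:21753826-21754125 (plus strand), Hist1h4j at chr13:21734784-21735083 (plus strand), Hist1h2bm at chr13:21721794-21722093 (plus strand), Hist2h2bb at chr3:96269450-96269749 (plus strand) and Hist1h1a at chr13:23763418-23763717 (plus strand). The window of Hist1h2bn, the highest in KD-2, held CCAAT and the inner stretch TTGCAT, and TATAAA only on the opposite strand. That TATAAA lies in the stretch shared with the window of its head-to-head partner Hist1h2ak, where it reads forward. Those of Hist1h2bm and Hist2h2bb, both below control in KD-2, held CCAAT and the octamer and no TATAAA. The H2B genes with the octamer had a median of 0.90 in KD-2 over 6 genes, and those without it 1.47 over 8. With TATAAA the H2B median was 1.47 over 8 genes and without it 0.66 over 6. Hist1h2bf, Hist1h2bk, Hist1h2bn and Hist1h2bp, and the H2A gene Hist1h2ae, held TATAAA only on the opposite strand. For H2A the order was the same for the octamer (1.05 with and 1.22 without, 7 genes each) and for TATAAA reversed (1.15 with, over 10, and 1.24 without, over 4). These are descriptions of few genes, and the letters mark no measured binding.

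Histone genes share much of their sequence, and the authors kept reads with a mapping quality above 30, which removes reads that fit several copies. The 10 members without enough reads were Hist1h2ao, Hist1h2ap, Hist1h2bq, Hist1h2br, Hist1h4m, Hist1h4n, Hist2h2aa1, Hist2h2aa2, Hist2h3c1 and Hist2h3c2. They had 0 reads in every library but for 1 read of Hist1h4n in KD-1, where a count of 0 allows up to 3 reads. Between 34.8% and 100% of their 50-base windows occur in another gene (lowest for Hist2h3c1), and their expression could not be read from these counts. Of the members with reads, Hist1h1e and Hist1h2be overlap each other, and Hist1h2ac, Hist1h4b, Hist2h2ab and Hist2h3b overlap other annotated genes, so their values are less certain. Among members with reads, 13 shared under 10% of their windows, among them Hist1h2aa, Hist2h2be, Hist4h4 and all 6 H1 genes. Their median log2 fold change was 0.08 for KD-1 and 0.55 for KD-2 with 6 higher past 1.5-fold, and for the 7 core histone genes among them 1.00 with 4 higher. The other 45 had a median of 1.22 with 38 higher, where 17.1% of all genes were higher past this fold in KD-2. The shares are taken over annotated transcripts, which can run far past the stem-loop. Hist4h4 had 229 of 2814 windows shared, with 2445 bases after its stem-loop and a RefSeq length of 439. A share under 10% therefore does not show that the part up to the stem-loop is unique.

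By level, the 5 classes spanned wide ranges. In control the RPKM ran from 6.11 to 814 in H1, 8.83 to 179.6 in H2A, 0.829 to 2285 in H2B, 42.0 to 185 in H3 and 24.9 to 539 in H4. The class medians in RPKM were 257 in H1, 126 in H4, 85.6 in H3, 80.2 in H2B and 40.2 in H2A in control, and 396, 466, 161, 237 and 104 in the same order in KD-2. H4 thus stood below H1 in control and above it in KD-2, and the top gene of each class was the same in all 3 libraries. Levels count uniquely placed reads, and 3 H2B genes with reads, Hist1h2bc, Hist1h2be and Hist1h2bp, have a long RefSeq span and were given no level.

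Genes that act with the histone genes had a median below control in KD-2. Of 26 genes for histone gene transcription and mRNA processing, 0 were higher and 3 (Slbp, Eri1 and Ccne2) lower past 1.5-fold in KD-2, and their median was -0.31 on the log2 scale. Over all genes 17.1% were higher and 10.2% lower, so that the share of lower genes in this list was near the background. Scaled to library totals, 1 of the 26 was lower (median -0.15), where 4.92% of all genes were lower. Slbp, whose protein binds the stem-loop, gave 17179 reads in the control library, 15685 for KD-1 and 12112 for KD-2 (-0.36 and -0.61). Npat, the coactivator of histone genes in S phase, had 7483, 8963 and 6350 reads (0.03 and -0.34). The other 2 genes lower in KD-2 were Eri1, a nuclease of histone mRNA ends that was also lower in KD-1 (-0.70 and -0.72), and Ccne2, a cyclin E (-0.13 and -0.75). Cstf2, a cleavage factor, had 14556, 15752 and 12250 reads (-0.36 in KD-2).

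Genes of DNA replication, mitosis and histone deposition had medians below control in KD-2, where 17.1% of all genes were higher and 10.2% lower. Of 38 replication genes 0 were higher and 16 lower past 1.5-fold in KD-2, with a median of -0.54, while in KD-1 0 passed in either direction. The lists share genes: Slbp counts here and among the histone mRNA factors, and Mcm2 here and among the chaperones. The helicase subunits Mcm5 and Mcm6 were at -0.27 and -0.59 in KD-2. Of 12 mitosis genes 0 were higher and 4 lower (median -0.51), among them Top2a at -0.76 and Ccnb1 at -0.62. Of 19 histone chaperone genes 0 were higher and 7 lower (median -0.47). These counts depend on the scaling. Under library totals, where 4.92% of all genes were lower in KD-2, 4 replication, 1 mitosis and 3 chaperone genes were lower, with medians of -0.38, -0.35 and -0.31. Under TMM, where 8.35% of all genes were lower, 9, 3 and 6 were. Nasp, which carries H1 and H3-H4, had 89077, 99690 and 56444 reads (-0.77 in KD-2), and Atrx, a remodeller that works with the H3.3 chaperone Daxx, was at -0.47.

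Replacement variants, most of which are made outside S phase and from mRNAs with poly(A) tails, divided. Of 11 with enough reads 4 were higher past 1.5-fold in KD-2 and 0 lower, with a median of 0.05, beside 17.1% and 10.2% of all genes. H2afx, whose mRNA also has a stem-loop form, gave 2092 reads in the control library, 2942 for KD-1 and 11235 for KD-2 (2.32). H2afj had 1480, 1802 and 4436 (1.48). The others higher were H1f0 (0.65) and H1fx (1.27). The abundant variants H2afz and H3f3b were at -0.34 and -0.04 in KD-2. Of the 30 other genes with the stem-loop letters and enough reads, H2afx included, 8 were higher and 2 lower past 1.5-fold in KD-2, with a median of 0.18, beside the same shares of all genes. The pattern leaves stem bases free and was searched along the whole transcript, so a match need not form a histone stem-loop. Trim17, among the 8 higher, overlaps Hist3h2a.

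**Figure D5:**
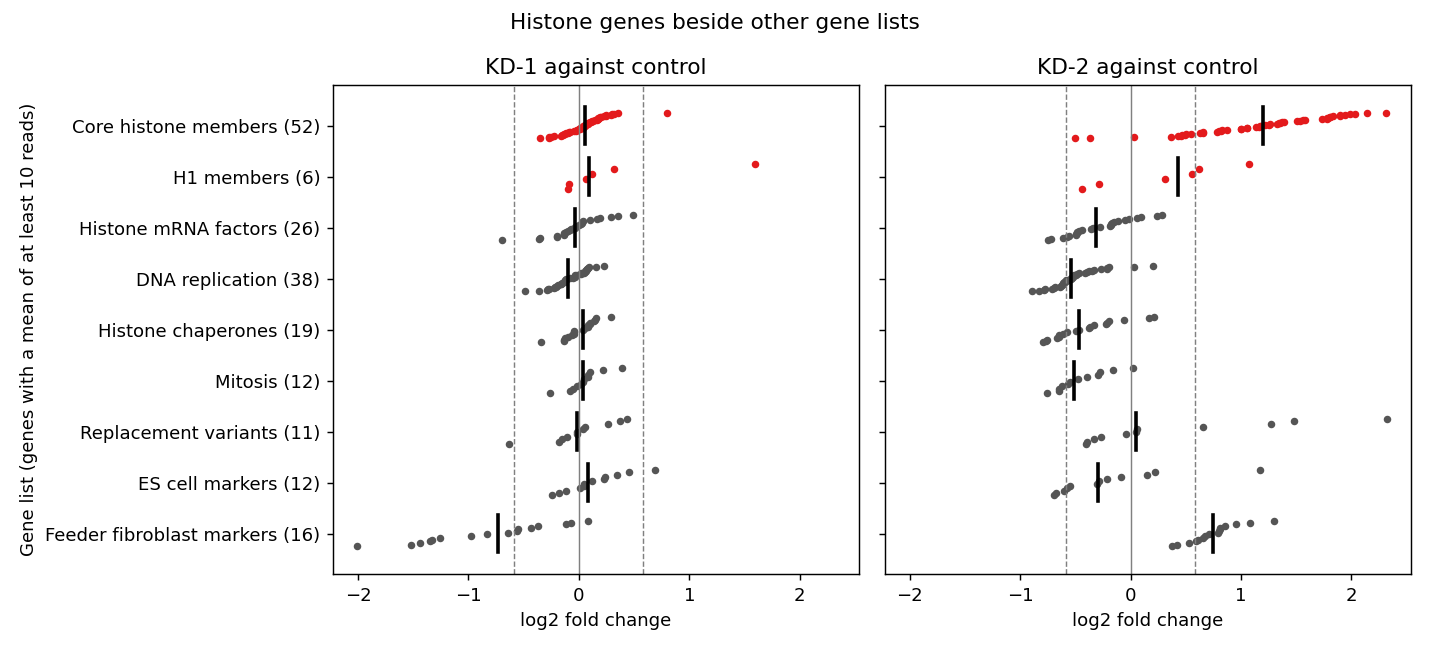
log2 fold changes against control of histone members (red) and of other gene lists (grey), 1 point per gene with the list median as a black bar and dashed lines at 1.5-fold, in KD-1 (left) and KD-2 (right). In KD-2 the core histone median is 1.20, those of replication, mitosis and chaperone genes lie between -0.54 and -0.47, and that of the feeder markers is 0.75.

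The libraries also differed in other features. Over all genes 8.63% were higher and 5.62% lower in KD-1, and 17.1% and 10.2% in KD-2. The feeder markers had a median of -0.73 in KD-1, with 9 of 16 lower past 1.5-fold, and of 0.75 in KD-2, with 13 of 16 higher, and 0 of the 16 were at 0 reads in any library. Col3a1 had 54628, 25523 and 114064 reads and Fn1 83181, 92486 and 129506. The ES markers had a median of -0.30 in KD-2, with 3 of 12 lower and 1 higher (0 lower under library totals), and their most abundant genes Dppa5a and Zfp42 were at -0.57 and -0.70. Beside histone mRNAs, a list of 12 genes of non-coding or rRNA-like RNA, most without a regular poly(A) tail, had 9 genes in the read counts, which held 24350 CPM in control, 54110 CPM in KD-1 and 62730 CPM in KD-2. Of these 9, 3 were higher and 0 lower past 1.5-fold in KD-1, and 5 were higher and 1, Snhg1 (-0.67), lower in KD-2. The largest differences were those of KD-1, in Lars2 with 18671, 464039 and 40743 reads (4.41 and 1.02) and Mir6236 with 1229, 24133 and 1136 reads (4.07 and -0.22). Both were listed here as rRNA-like, though Lars2 encodes a protein, and the source of its reads was not tested. The histone median in KD-1 was 0.06 beside these differences. Rmrp and Rpph1, the RNAs of RNase MRP and RNase P, were at 0.37 and 0.13 in KD-1 and at 1.74 and 1.65 in KD-2. The rRNA precursor Rn45s was at 1.89 and 1.28, and Malat1 at 0.20 and 0.30. The feeder markers and the histone genes were both above control in KD-2, and in KD-1 the feeder markers were lower while the histone median was near control. The part of the feeder share and of such RNAs in the histone result was not tested. Of 274 other genes of 300 to 800 bases in exons, 14.6% were higher past 1.5-fold in KD-2 with a median of -0.13, below the 17.1% of all genes.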

How the data were processed

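RNA-Seq reads (50 bp, single-end) were trimmed by the authors with Trim Galore (0.4.1) and mapped with TopHat2 (2.1.1) to mm10. The deposited values are raw counts of reads per gene with a mapping quality above 30. The methods name featureCounts and the submitters' processing notes HTSeq as the counting tool, and strand use is not stated. Reads on no gene were 21.5% to 24.1% and ambiguous reads 1.45% to 1.65% of each library. These lines were left out. Spike-ins were not used here.

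Log2 fold changes used upper-quartile scaled reads plus 0.5, over genes averaging 10 or more reads per library. Counting intervals (95%) are exact. Both knockdowns as a group were tested with edgeR 4.0.16 (quasi-likelihood, TMM) and DESeq2 1.42.0 in R 4.3.3, with Benjamini-Hochberg adjustment over 21164 genes. Tables and figures were made in Python 3.11.15 with pandas 2.3.3 and matplotlib 3.10.9. RPKM used RefSeq gene lengths. The stem-loop was searched in GENCODE transcripts in place of a genome sequence, and protein identity within classes was not computed.

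Alternatives were TMM, DESeq2 size factors, library totals, all reads counted as the total, a pseudocount of 5, no filter, a minimum mean of 100, a fold of 2, leaving out the member with the most reads or 1 knockdown library. After seeing the data, 3 were added (members sharing under 10% of windows, classes without members outside Hist1, and the scalings for the other gene lists). The members and gene lists were chosen with earlier results of these data known.

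Named members were, per class, the 2 with most reads, the 5 highest and 5 lowest fold changes per knockdown with a mean of at least 100 reads, all with reads outside Hist1, germ-line members and those next to the fold limit. Members that end a class range, Hist1h3d and Hist1h3a, those without enough reads, pairs and genes of other lists past the fold were named after their values were seen.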

Additional observations from a re-analysis of the deposited data

How the results depend on the processing

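With 1 library per condition, depth limits only the members with few reads. No paired analysis was possible because the groups share a single replicate number. The members higher past 1.5-fold in KD-2 numbered 44 to 50 and in KD-2 against KD-1 42 to 45 over the scalings, pseudocount and filters tried, and 34 and 30 past a fold of 2 (5.42% and 7.89% of all genes). In KD-1, 1 member was higher past a fold of 2, and without a filter on low counts 1 member, of almost no reads, was lower in KD-2 against KD-1. The log2 ratio of summed reads in KD-1, 0.042, was 0.025 under TMM, -0.024 under DESeq2 size factors, 0.034 under totals and -0.007 with all reads as the total. That in KD-2, 0.719, was 0.760 under TMM, 0.757 under DESeq2 size factors, 0.877 under totals, 0.887 with all reads as the total and 0.942 without the member with the most reads, Hist2h2bb. That in KD-2 against KD-1, 0.677, was 0.735, 0.780, 0.843, 0.894 and 0.898 in the same 5 settings. The median over the members in KD-1 was 0.039 under TMM, -0.010 under DESeq2 size factors, 0.047 under totals and 0.079 over members with under 10% shared windows. In KD-2 it was 1.188, 1.184, 1.304 and 0.553, and in KD-2 against KD-1 1.076, 1.122, 1.185 and 0.259. Class medians in KD-1 that changed sign were H2A under DESeq2 size factors (-0.012) and H2B under TMM (-0.010), DESeq2 size factors (-0.059), totals (-0.002) and without members outside Hist1 (-0.025). The H1 median of KD-2 against KD-1 changed sign under TMM (0.056), DESeq2 size factors (0.101) and totals (0.164). Of the other gene lists, the replication genes lower in KD-2 numbered 16, and 9 under TMM, 9 under DESeq2 size factors and 4 under totals. The share of all genes lower in KD-2 was 10.2%, and 8.35%, 8.49% and 4.92% in the same settings. Under totals the lower genes fell from 3 to 1 for histone mRNA factors, 7 to 3 for chaperones, 4 to 1 for mitosis, 3 to 0 for ES markers and 1 to 0 for non-coding RNAs. The median with both knockdowns as a group ran from 0.039 without KD-2 to 1.188 without KD-1. The causes of these differences were not tested.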

Other observations

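Genes within 100 kb of the clusters that are not members, the replacement variant H2afj among them, were read in the same way. Of 25 such genes with enough reads, 10 were higher and 3 lower past 1.5-fold in KD-2 (median 0.24 on the log2 scale), and 6 were higher and 1 lower in KD-1. Over all genes 17.1% were higher and 10.2% lower in KD-2, and 8.63% and 5.62% in KD-1. In KD-2 against KD-1, 7 of the 25 were higher and 6 lower, with a median of -0.29. Hfe, an iron regulator between histone genes of the distal Hist1 block, gave 200 reads in the control library, 252 for KD-1 and 405 for KD-2 (log2 0.91). Bola1, beside the Hist2 cluster, had 503, 724 and 1040 reads (0.94), while Zfp184, beside the proximal Hist1 block, had 1108, 1365 and 760 (-0.65). H2afj, beside Hist4h4, was higher in KD-2 (1.48), and Wbp11, also beside it, lower (-0.76). Mgp, a matrix protein gene of fibroblasts beside Hist4h4, had 49768, 29526 and 88114 reads, or -0.98 and 0.72 in KD-1 and KD-2. These 6 genes were picked after their values were seen.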
